A study of Mus musculus with 8 samples.

Results

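The genes of MHC class II antigen presentation were examined in quadriceps muscle of mice given the chemotherapy combination Folfiri or its vehicle. The members were listed by symbol, with no threshold on a measured value, as Cd74, H2-Aa, H2-Ab1, H2-Eb1, H2-Ea-ps, H2-DMa, H2-DMb1 and Ciita. Of these 8 genes, 7 were listed in the table of 12896 genes, all 7 passed the minimum of 40 reads summed over the 8 libraries, and H2-DMb1 was not analysed here. In total 12883 genes passed that minimum and were tested.

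RNA-Seq was performed on whole quadriceps of healthy, tumor-free male CD2F1 mice, the first-generation cross of BALB/c and DBA/2, which were 8 weeks old when treatment began. The Folfiri group (n = 4) received intraperitoneal 5-FU (5-fluorouracil) at 30 mg/kg, Leucovorin at 90 mg/kg and CPT-11 (irinotecan) at 24 mg/kg, 2 times per week and for as long as 5 weeks, and the Vehicle group (n = 4) received the vehicle alone. Each library came from the muscle of 1 animal, and all animals were of the same strain and sex. The comparison addressed how the drugs alone, with no tumor present, affected the muscle transcriptome.

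MHC class II molecules are cell surface dimers of an α and a β chain that show peptides from endocytosed proteins to CD4+ T cells. In the mouse the classical molecules are I-A, made of H2-Aa and H2-Ab1, and I-E, whose β chain is H2-Eb1. The invariant chain Cd74 assembles with the new dimers in the endoplasmic reticulum, guides them to endosomes and blocks their groove until proteases reduce it to the fragment CLIP, which the H2-DM dimer then exchanges for antigenic peptide. Transcription of the other members depends on Ciita, a coactivator that binds no DNA itself and is recruited by the RFX, CREB and NF-Y proteins seated on the X and Y boxes of class II promoters. Dendritic cells, B cells and macrophages are the main sources of class II, and interferon gamma induces Ciita in many other cells.

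The X and Y boxes can be read in the promoters of both a classical α chain and a classical β chain, which is why those of H2-Aa and H2-Eb1 are shown here. The windows run from 250 bases before to 50 bases after the start of the gene and come from RefSeq on GRCm38.p6, a later build than the mm9 of the expression table. The capitals mark GCAAC, letters of the X box, and TGATTGG, the Y box with its inverted CCAAT.
H2-Aa, chr17:34287774-34288073, minus strand: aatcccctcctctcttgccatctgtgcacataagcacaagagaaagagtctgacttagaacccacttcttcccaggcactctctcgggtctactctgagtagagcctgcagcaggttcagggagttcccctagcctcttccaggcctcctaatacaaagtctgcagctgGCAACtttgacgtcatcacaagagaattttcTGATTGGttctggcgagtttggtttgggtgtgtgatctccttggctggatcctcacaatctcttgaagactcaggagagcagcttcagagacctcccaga
H2-Eb1, chr17:34305617-34305916, plus strand: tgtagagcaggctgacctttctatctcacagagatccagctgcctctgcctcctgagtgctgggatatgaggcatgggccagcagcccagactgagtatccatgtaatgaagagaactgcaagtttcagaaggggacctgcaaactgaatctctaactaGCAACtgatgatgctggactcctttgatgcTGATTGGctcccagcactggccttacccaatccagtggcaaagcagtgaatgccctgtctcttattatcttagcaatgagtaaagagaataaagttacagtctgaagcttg

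In H2-Aa the X letters began 81 bases and the Y letters 50 bases before the start, with 26 bases between them. In H2-Eb1 they began 91 and 61 bases before the start, with 25 bases between them. The search asked for GCAAC followed by TGATTGG with 20 to 30 bases between, on both strands, and its letters and spacing were chosen after these windows had been read. Of 32851 windows of 300 bases, 34 held the pair (0.103%), although GCAAC alone was in 35.2% and TGATTGG alone in 7.82%. The table held windows for 4 of the 8 members, and the pair was found for 2 of them (H2-Aa and H2-Eb1) and not in the windows of H2-DMa and H2-DMb1. It was also found in the windows of H2-Oa, H2-Ob and H2-Eb2, class II genes outside the members. These matches describe letters only.

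On mm9, in the coordinates of the deposited table, 5 listed members lay together on chromosome 17 within the major histocompatibility complex. They were H2-DMa at 34259777 to 34276046 on the plus strand, H2-Ab1 at 34400172 to 34406363 on the plus strand, H2-Aa at 34419696 to 34424716 on the minus strand, H2-Eb1 at 34442812 to 34453619 on the plus strand and H2-Ea-ps at 34479157 to 34481590 on the minus strand. Cd74 lay on chromosome 18 at 60963503 to 60972306 and Ciita on chromosome 16 at 10480165 to 10527733, both on the plus strand. GENCODE on the same build annotates 6 of these 7 as protein coding and H2-Ea-ps as a pseudogene. The reference strain C57BL/6 has a defective gene for the I-E α chain, whereas both parents of CD2F1 carry the d haplotype of H2, in which that gene is intact. Reads of d haplotype alleles were mapped to the C57BL/6 sequence, and the effect of that on the levels was not tested.

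Totals ran from 11921092 to 21056818 reads in the Folfiri libraries and from 8505985 to 16303015 in the Vehicle libraries. Correlations between replicates of 1 group ran from 0.948 to 0.978 on log2 CPM (CPM being read counts scaled to a common library size with TMM). All 10 skeletal muscle markers of the label check, such as Acta1 and Ckm, were listed and together held 148662 to 258544 CPM in Folfiri and 173886 to 269208 CPM in Vehicle libraries. Over all genes edgeR's quasi-likelihood test with Benjamini-Hochberg adjustment called 1 gene higher and 0 lower at adjusted p under 0.05, and at unadjusted p under 0.05 it gave 706 higher and 518 lower. The other tools called 86 genes (0.668%, edgeR's exact test), 101 genes (0.784%, edgeR's likelihood ratio test), 77 genes (0.598%, DESeq2) and 3 genes (0.0233%, limma voom with sample quality weights) in either direction.

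No class II gene passed the adjusted threshold in Folfiri muscle, and every listed member had a higher mean in Folfiri than in Vehicle. Of the 7 members, 0 were called higher at adjusted p under 0.05 (0.00776% of all genes) and 0 were called lower (0% of all genes), by edgeR's quasi-likelihood test. The other tools also called 0 members, where they called 0.668% (exact test), 0.784% (likelihood ratio test), 0.598% (DESeq2) and 0.0233% (limma voom) of all genes. At unadjusted p under 0.05 the count was 1 higher (5.48% of all genes), which was Ciita, and 0 lower (4.02%). All 7 members had a positive log2 fold change, against 51.4% of all genes, and their median was 0.47 against 0.01 over all genes tested. The members lie in 1 pathway and 5 of them in 1 cluster, so their signs are not independent. In no member did the groups separate, whereas among all genes 2.87% had every Folfiri value above every Vehicle value and 2.66% had every one below. In whole muscle, a different number of cells of a type and a different amount of RNA per cell cannot be told apart.

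**Figure D1:**
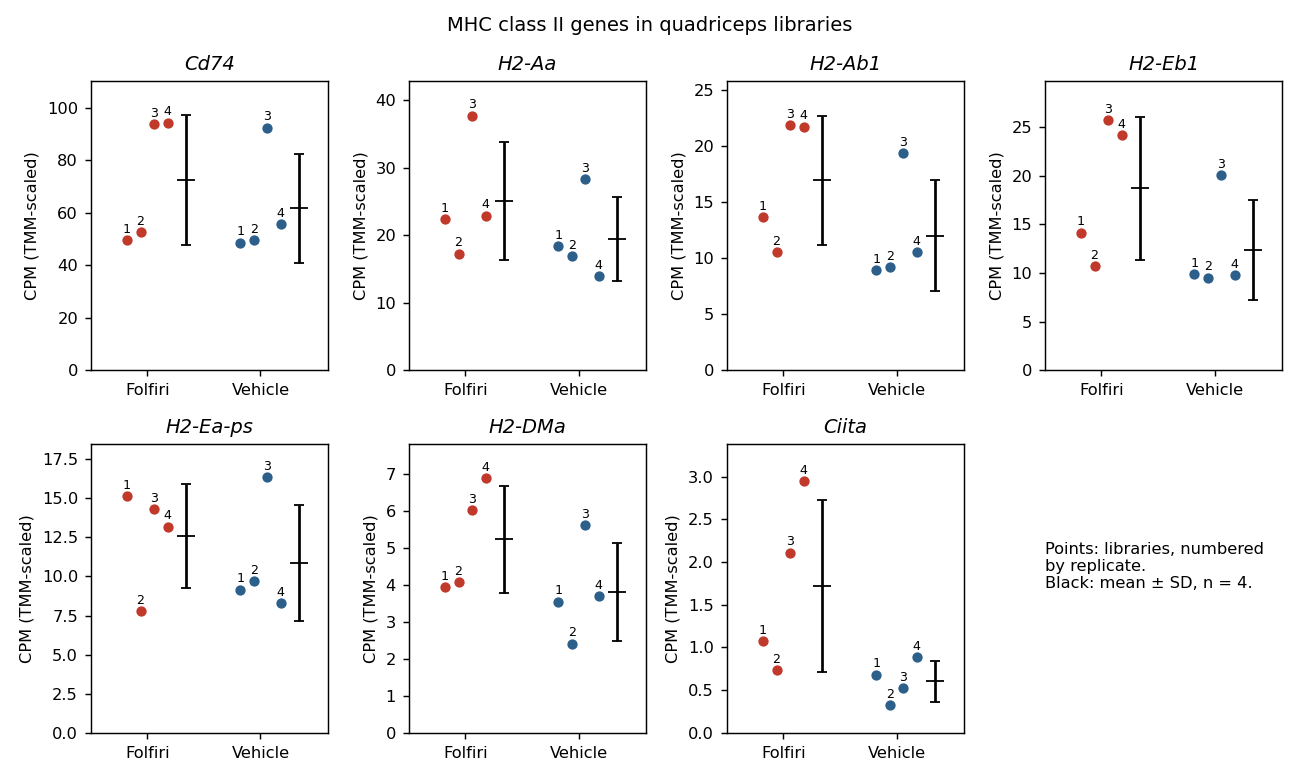
CPM of each of the 7 listed members in the 4 Folfiri (left) and 4 Vehicle (right) libraries, with points for libraries and bars for the group mean and SD. The groups overlap in every panel, and Ciita has 3 of 4 Folfiri libraries above the highest Vehicle library.

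Expressed per length of transcript, the members spanned a wide range, and their order was the same in both groups. On the RPKM scale (CPM per kilobase of transcript) the mean level of Cd74 was 51.3 in Folfiri and 43.6 in Vehicle, the highest of the set. H2-Aa followed at 23.4 RPKM in Folfiri and 18.1 in Vehicle. The invariant chain was thus the most abundant transcript, ahead of the chains it escorts. Then came H2-Ea-ps at 16.1 and 13.9 RPKM, H2-Ab1 at 14.2 and 10.1, and H2-Eb1 at 11.2 and 7.38, each given for Folfiri and then Vehicle. H2-DMa, a chain of the peptide exchange catalyst, stood at 3.16 RPKM in Folfiri and 2.31 in Vehicle. The coactivator Ciita was the lowest, with 0.286 RPKM in Folfiri and 0.101 in Vehicle. In both groups the neighbours from H2-Aa down to H2-Eb1 differed by less than the larger of their SDs, so their order lies within the spread between libraries. Cd74, H2-DMa and Ciita each stood apart from their neighbours by more than that.

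Cd74, the invariant chain, gave the most reads of the set. Its level was 49.5, 52.7, 93.7 and 94.4 CPM in Folfiri 1 to 4, against 48.7, 49.7, 92.5 and 55.8 CPM in Vehicle 1 to 4. Folfiri 3 and Folfiri 4 were high and so was Vehicle 3, while the remaining 5 libraries lay close together, and the groups overlapped. The mean was 72.6 ± 24.8 CPM in Folfiri and 61.6 ± 20.8 CPM in Vehicle (SD, n = 4 each), a log2 fold change of 0.24 ± 0.27 (SE) with an adjusted p of 0.80 by edgeR's quasi-likelihood test. The fold change was 1.18 with a 95% interval of 0.783 to 1.77. The microRNA gene Mir5107 lies inside Cd74 at 60971730 to 60971817 on the same strand, so that reads there may count for either.

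H2-Aa, the α chain of I-A, was measured at 22.4, 17.3, 37.7 and 22.9 CPM in Folfiri 1 to 4, against 18.4, 16.9, 28.2 and 13.9 CPM in Vehicle 1 to 4. Folfiri 3 alone exceeded the highest Vehicle library, and the groups overlapped. The means of H2-Aa were 25.1 ± 8.79 CPM in Folfiri and 19.3 ± 6.22 CPM in Vehicle (SD, n = 4 each), with a log2 fold change of 0.38 ± 0.27 (SE) and an adjusted p of 0.669 in edgeR's quasi-likelihood test. The corresponding fold was 1.30 (95% interval 0.867 to 1.95).

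H2-Ab1, the β chain of I-A, had 13.6, 10.5, 21.9 and 21.8 CPM in Folfiri 1 to 4, against 8.95, 9.20, 19.4 and 10.5 CPM in Vehicle 1 to 4. Folfiri 3 and Folfiri 4 lay above all Vehicle libraries, and Vehicle 3 lay above Folfiri 1 and Folfiri 2. Group means were 16.9 ± 5.75 CPM in Folfiri and 12.01 ± 4.95 CPM in Vehicle (SD, n = 4 each). The log2 fold change of H2-Ab1 was 0.51 ± 0.30 (SE), the fold 1.42 (95% interval 0.905 to 2.24), and edgeR's quasi-likelihood test gave an adjusted p of 0.598.

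H2-Eb1, the β chain of I-E, had the same 5 libraries at the top as H2-Ab1, with 14.1, 10.7, 25.7 and 24.2 CPM in Folfiri 1 to 4, against 9.91, 9.52, 20.01 and 9.81 CPM in Vehicle 1 to 4. Again Folfiri 3 and Folfiri 4 were above every Vehicle library and Vehicle 3 was above the other Folfiri libraries. It averaged 18.7 ± 7.39 CPM in Folfiri and 12.3 ± 5.13 CPM in Vehicle (SD, n = 4 each), a log2 fold change of 0.61 ± 0.32 (SE) with an adjusted p of 0.562 by edgeR's quasi-likelihood test. The fold of 1.53 had a 95% interval of 0.942 to 2.48. H2-Eb1 and H2-Ab1 share a stretch of 37 identical bases in their annotated transcripts, the longest among 15 pairs of coding members and shorter than a read of 75 bases. H2-Eb1 also shares 44 bases with H2-Eb2.

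H2-Ea-ps, the locus of the I-E α chain, had 15.1, 7.77, 14.3 and 13.2 CPM in Folfiri 1 to 4, against 9.16, 9.68, 16.3 and 8.28 CPM in Vehicle 1 to 4. Here Vehicle 3 was the highest library of all and Folfiri 2 the lowest. Means were 12.6 ± 3.32 CPM in Folfiri and 10.9 ± 3.70 CPM in Vehicle (SD, n = 4 each), with a log2 fold change of 0.22 ± 0.26 (SE), a fold of 1.17 (95% interval 0.783 to 1.74) and an adjusted p of 0.806 by edgeR's quasi-likelihood test. This was the smallest log2 difference of the 7 members.

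H2-DMa, the α chain of the H2-DM dimer that releases CLIP, had 3.95, 4.08, 6.03 and 6.89 CPM in Folfiri 1 to 4, against 3.55, 2.42, 5.62 and 3.70 CPM in Vehicle 1 to 4. Each Folfiri library of H2-DMa exceeded the Vehicle mean, but Vehicle 3 lay above Folfiri 1 and Folfiri 2. The averages were 5.24 ± 1.46 CPM in Folfiri and 3.82 ± 1.33 CPM in Vehicle (SD, n = 4 each). Its log2 fold change was 0.47 ± 0.30 (SE), the fold 1.38 (95% interval 0.884 to 2.17), and edgeR's quasi-likelihood test gave an adjusted p of 0.627. The table starts this gene at 34259777, ahead of the start at 34272127 in GENCODE.

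Ciita, the coactivator of the other members, had the largest difference and the fewest reads. It was counted 15, 17, 28 and 44 times in Folfiri 1 to 4 and 10, 4, 4 and 11 times in Vehicle 1 to 4. After scaling these were 1.08, 0.738, 2.11 and 2.95 CPM in the Folfiri libraries and 0.683, 0.323, 0.523 and 0.884 CPM in the Vehicle libraries. Folfiri 1, Folfiri 3 and Folfiri 4 lay above all Vehicle libraries, and Folfiri 2 lay between Vehicle 1 and Vehicle 4. The means were 1.72 ± 1.01 CPM in Folfiri and 0.603 ± 0.238 CPM in Vehicle (SD, n = 4 each), a log2 fold change of 1.46 ± 0.52 (SE) and a fold of 2.76 (95% interval 1.27 to 6.002). By edgeR's quasi-likelihood test its p was 0.0146 before and 0.435 after adjustment, so the difference did not pass over all genes. Counting alone left wide limits, with exact 95% binomial intervals of 2.14 to 3.95 CPM in Folfiri 4 and 0.0879 to 0.826 CPM in Vehicle 2. These intervals cover counting error only.

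**Figure D2:**
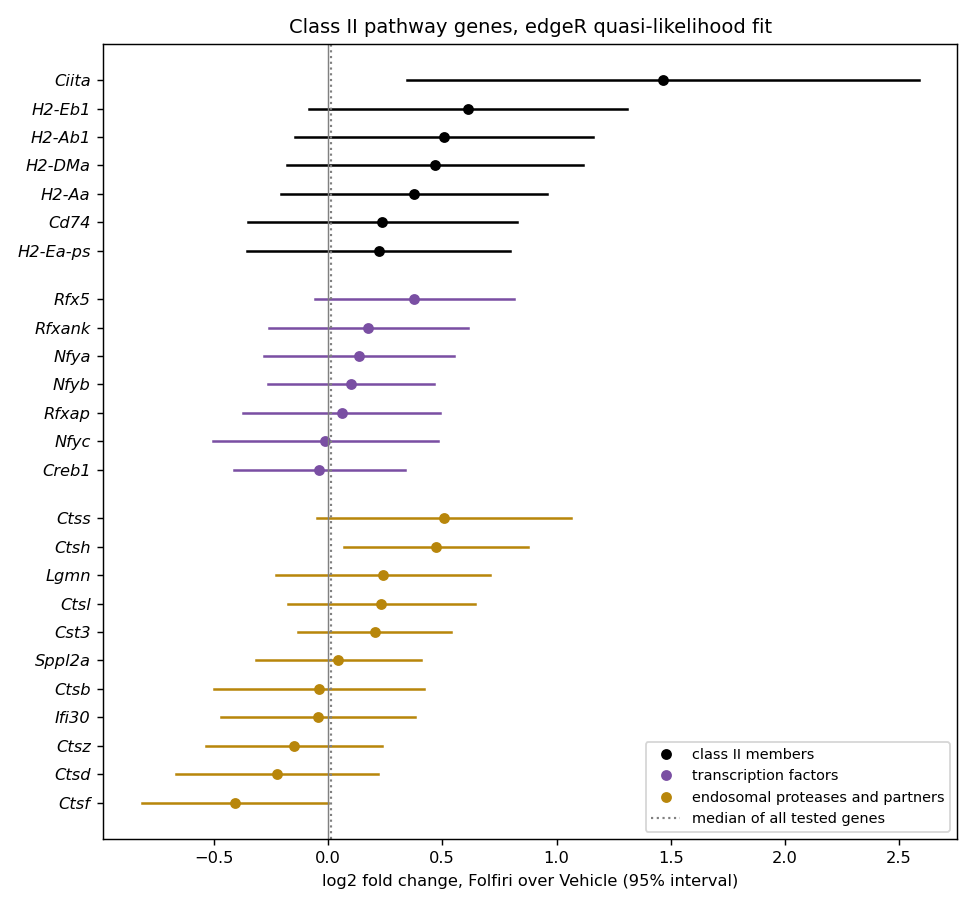
Log2 fold change of Folfiri over Vehicle for the members and for named genes of the class II pathway, with 95% intervals from edgeR's quasi-likelihood fit. All 7 members lie right of 0, from 0.22 for H2-Ea-ps to 1.46 for Ciita, and the interval of Ciita alone among the members excludes 0 before adjustment.

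The members tended to be high and low in the same libraries, and these cut across the groups. Summed over the 7 members the level was 120, 104, 201 and 186 CPM in Folfiri 1 to 4, against 99.3, 97.7, 183 and 103 CPM in Vehicle 1 to 4. Vehicle 3 thus resembled Folfiri 3 and Folfiri 4, and Folfiri 2 resembled the other Vehicle libraries. In Vehicle 3 the level of Cd74 was 1.80 times, that of H2-Ab1 2.02 times and that of H2-Eb1 2.05 times the mean of the other 3 Vehicle libraries. Ciita was at 0.830 times that mean in the same library, on 4 reads. Its exact 95% binomial interval there was 0.143 to 1.34 CPM, against a mean of 0.630 CPM in the other 3. A departure of Ciita from the pattern thus cannot be told from counting error. Vehicle 3 was also the shallowest library, with 8505985 reads, and had the highest sum of muscle markers, 269208 CPM. The part of both in its class II level was not tested.

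**Figure D3:**
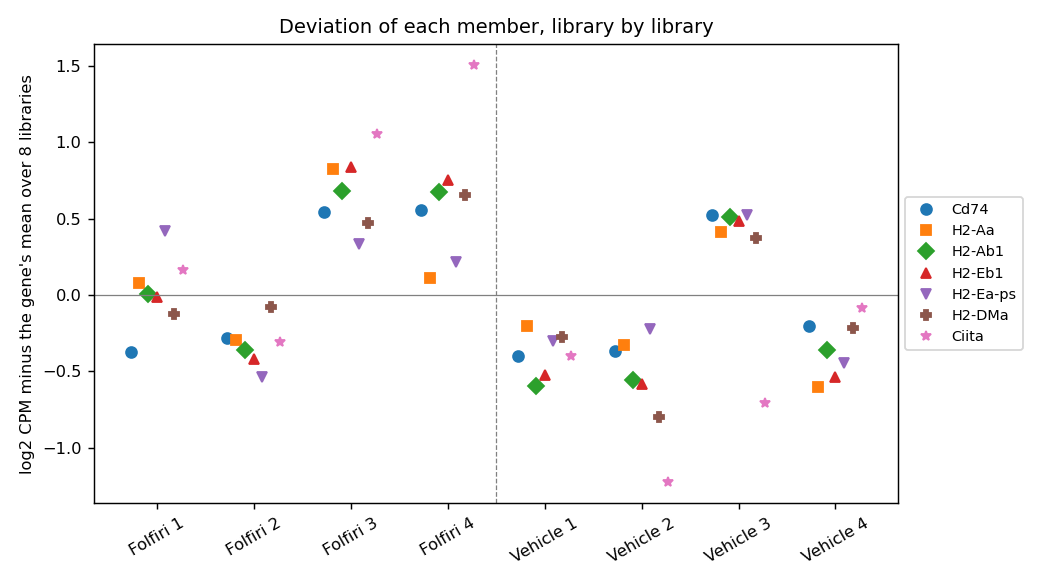
Log2 CPM of each member minus its mean over the 8 libraries, for Folfiri 1 to 4 (left) and Vehicle 1 to 4 (right), 1 marker per member. In Folfiri 3 and Folfiri 4 all 7 members lie above 0, and in Folfiri 2 all 7 lie below it. In Vehicle 3 Ciita, with 4 reads there, is the 1 member below it.

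Leaving out single libraries moved the differences in both directions. Without Vehicle 3 the log2 fold change was 0.50 for Cd74, 0.61 for H2-Aa, 0.82 for H2-Ab1, 0.93 for H2-Eb1, 0.47 for H2-Ea-ps, 0.69 for H2-DMa and 1.42 for Ciita. In that fit of edgeR's quasi-likelihood test 0 of 7 passed. Adjusted p values ran from 0.412 for H2-Ab1 and H2-Eb1 to 0.592 for Cd74 and H2-Ea-ps. At unadjusted p under 0.05 there were 5 members, against 1 with all libraries. Over all genes that count was slightly lower than with all libraries. With all libraries 5.48% of all genes were higher and 4.02% lower at that threshold. Vehicle 3 was the highest Vehicle library for every member except Ciita. Leaving it out therefore lowered their Vehicle means and raised their differences, so the count of 5 depends on that choice. Without Folfiri 3 the log2 fold change of H2-Aa was 0.11 and that of Cd74 0.085, and without Folfiri 4 that of Cd74 was 0.084, that of H2-DMa 0.31 and that of Ciita 1.06. Over all 8 fits with 1 library left out, the log2 fold change of H2-Eb1 ran from 0.41 to 0.93 and that of Ciita from 1.06 to 1.73. Ciita had no unadjusted p under 0.05 once Folfiri 4, its highest library, was left out.

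**Figure D4:**
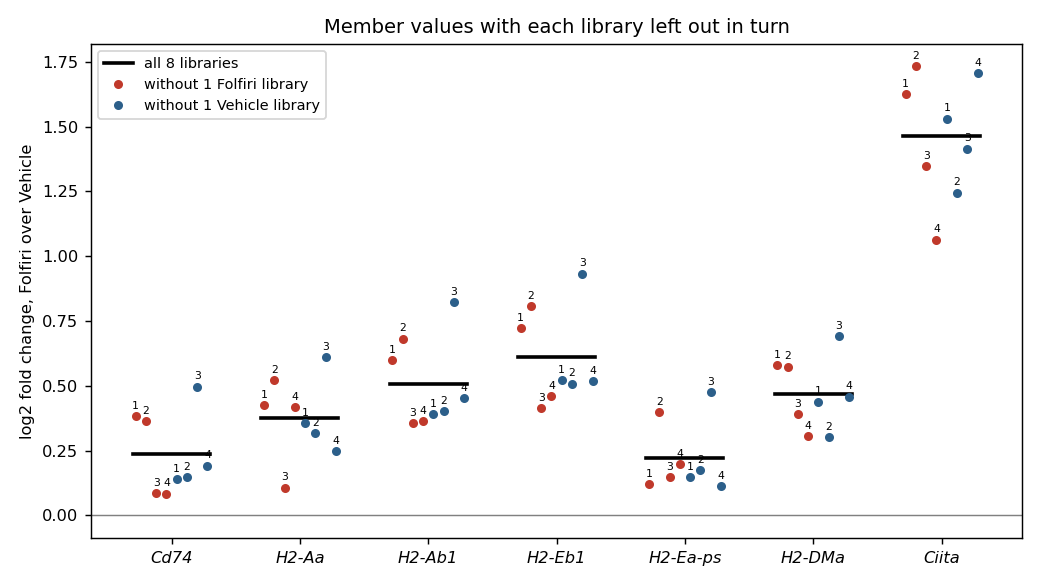
Log2 fold change of Folfiri over Vehicle for each member with all libraries and with each of the 8 libraries left out in turn. Every point is above 0, and for all members except Ciita the highest point is the fit without Vehicle 3.

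Ratios between members within a library do not depend on its depth. Cd74 made up 41.3% to 50.8% of the member reads in Folfiri and 49.0% to 54.2% in Vehicle libraries. There were 1.04, 1.01, 1.18 and 1.11 reads of H2-Eb1 per read of H2-Ab1 in Folfiri 1 to 4, against 1.11, 1.04, 1.03 and 0.931 in Vehicle 1 to 4, so both β chains kept nearly the same proportion throughout. The reads of H2-Ea-ps per read of H2-Eb1 varied more, at 1.07, 0.728, 0.557 and 0.546 in Folfiri 1 to 4 and 0.924, 1.02, 0.817 and 0.844 in Vehicle 1 to 4. Folfiri 3 and Folfiri 4 had the lowest values and Folfiri 1 the highest, and the groups overlapped. The reads of Ciita amounted to 0.907%, 0.716%, 1.06% and 1.61% of those of the other 6 members in Folfiri 1 to 4, against 0.693%, 0.331%, 0.287% and 0.867% in Vehicle 1 to 4. That ratio was above the highest Vehicle library in 3 of 4 Folfiri libraries, and it was not tested.

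Among the other class II genes and the proteins that bind their promoters, 7 of 11 were listed and 0 passed the test in either direction. The listed genes named here are all promoter-binding proteins, so no level of another class II gene is given. Their log2 fold changes were positive in 5 and negative in 2, with a median of 0.10. Rfx5, a subunit of the RFX complex on the X box, averaged 14.8 ± 0.831 CPM in Folfiri and 11.4 ± 2.92 CPM in Vehicle (SD, n = 4 each), a log2 difference of 0.38 ± 0.20 (SE) with an adjusted p of 0.566 in edgeR's quasi-likelihood test. Without Vehicle 2 that log2 difference was 0.23. Rfxank, another RFX subunit, differed by 0.18 and Nfya, a subunit of NF-Y on the Y box, by 0.14 on the log2 scale. Nfyb, Creb1 and Rfxap, the most abundant of the list by CPM, differed by 0.10, -0.04 and 0.06.

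Of the endosomal proteases and their partners, which cut antigens and the invariant chain, all 11 were listed and 0 passed in either direction, with 6 positive, 5 negative and a median log2 fold change of 0.04. Ctsh, an aminopeptidase, had 7.39 to 10.2 CPM in Folfiri and 5.75 to 6.70 CPM in Vehicle libraries, so the groups did not overlap. It was the 1 gene of the 11 with every Folfiri value above every Vehicle value (2.87% of all genes). Its log2 fold change was 0.47 with an adjusted p of 0.471 in edgeR's quasi-likelihood test. Ctss, the protease that finishes the cleavage of the invariant chain in professional presenting cells, averaged 8.09 ± 1.97 CPM in Folfiri and 5.73 ± 1.73 CPM in Vehicle (SD, n = 4 each), a log2 difference of 0.51 ± 0.26 (SE) that had an adjusted p of 0.551 in the same test and was 0.32 without Folfiri 3. Ctsf had the opposite sign, at -0.41 on the log2 scale. The abundant Ctsd, Ctsb and Cst3, an inhibitor of cysteine cathepsins, differed by -0.22, -0.04 and 0.21, and Ctsd by -0.075 without Folfiri 1.

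The interferon gamma pathway that leads to Ciita, with its response genes, had 18 of 24 genes listed, and 0 of them passed in either direction. There were 13 positive and 5 negative log2 fold changes (51.4% of all genes were positive) with a median of 0.27, and 2 were higher at unadjusted p under 0.05 (5.48% of all genes). Igtp, an interferon-inducible GTPase, had 7.39, 10.8, 24.3 and 15.7 CPM in Folfiri 1 to 4, against 6.63, 9.84, 7.06 and 6.59 CPM in Vehicle 1 to 4. Its log2 fold change was 0.94 ± 0.32 (SE) with an adjusted p of 0.435 by edgeR's quasi-likelihood test. Irgm2, of the same family, had 8.18, 11.8, 37.1 and 18.6 CPM in Folfiri 1 to 4 and 9.50, 10.97, 8.24 and 11.4 CPM in Vehicle 1 to 4, with a log2 fold change of 0.91 ± 0.38 (SE) and an adjusted p of 0.499. Without Folfiri 3 the log2 fold change was 0.58 for Igtp and 0.35 for Irgm2. Both were highest in Folfiri 3 and next in Folfiri 4, the libraries that were also high in class II, but neither was high in Vehicle 3. Irgm1 differed by 0.39 on the log2 scale, and by 0.16 without Folfiri 3. Jak1 and Jak2, kinases of the receptor, and Ifngr2, a receptor chain, differed by -0.29, -0.12 and 0.33.

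Markers of cells that carry class II were set beside these values. Of 17 macrophage markers 15 were listed, 0 passed the adjusted threshold in edgeR's quasi-likelihood test, and their median log2 fold change was 0.62. At unadjusted p under 0.05 in edgeR's quasi-likelihood test 8 were higher (5.48% of all genes) and 0 lower (4.02%). Summed, they held 161, 161, 218 and 156 CPM in Folfiri 1 to 4, against 94.8, 109, 139 and 84.4 CPM in Vehicle 1 to 4, so all 4 Folfiri libraries lay above Vehicle. Taken singly, 4 of the 15 markers had every Folfiri value above every Vehicle value (2.87% of all genes). Lyz2, the lysozyme of myeloid cells, averaged 34.2 ± 9.15 CPM in Folfiri and 18.1 ± 4.25 CPM in Vehicle (SD, n = 4 each), a log2 difference of 0.92 ± 0.22 (SE) with an adjusted p of 0.271 in edgeR's quasi-likelihood test. C1qc and C1qa, chains of complement C1q made by tissue macrophages, differed by 1.25 and 1.12 with an adjusted p of 0.302 each in the same test, and Csf1r and Mrc1 by 0.62 and 0.49 (Mrc1 by 0.74 without Vehicle 3). The summed class II level per macrophage marker CPM was 0.745, 0.643, 0.922 and 1.19 in Folfiri 1 to 4, against 1.05, 0.894, 1.32 and 1.22 in Vehicle 1 to 4. The part of these markers in the class II levels was not tested.

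Of 11 dendritic cell markers 4 were listed, and 0 passed the adjusted threshold. Their sum was 20.5, 15.6, 18.01 and 19.3 CPM in Folfiri 1 to 4, against 12.2, 12.5, 23.4 and 13.1 CPM in Vehicle 1 to 4. Vehicle 3 was the highest library, as it was for H2-Ea-ps. Cd209a had 3.21 to 4.81 CPM in Folfiri and 1.37 to 3.66 CPM in Vehicle, a log2 difference of 0.79 with an adjusted p of 0.471 in edgeR's quasi-likelihood test. Clec10a was at 4.95, 4.34, 6.93 and 6.83 CPM in Folfiri 1 to 4, against 2.39, 2.26, 8.24 and 2.73 CPM in Vehicle 1 to 4, so that its 3 highest libraries were those of H2-Ab1 and H2-Eb1. Its log2 difference was 0.61, and 1.22 without Vehicle 3. Siglech and Zbtb46 differed by 0.53 and -0.28 on the log2 scale, and Siglech by 0.12 without Folfiri 1. None of the 11 B cell and 9 T cell markers was among the listed genes. The part of the dendritic cell markers in the class II levels was not tested.

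**Figure D5:**
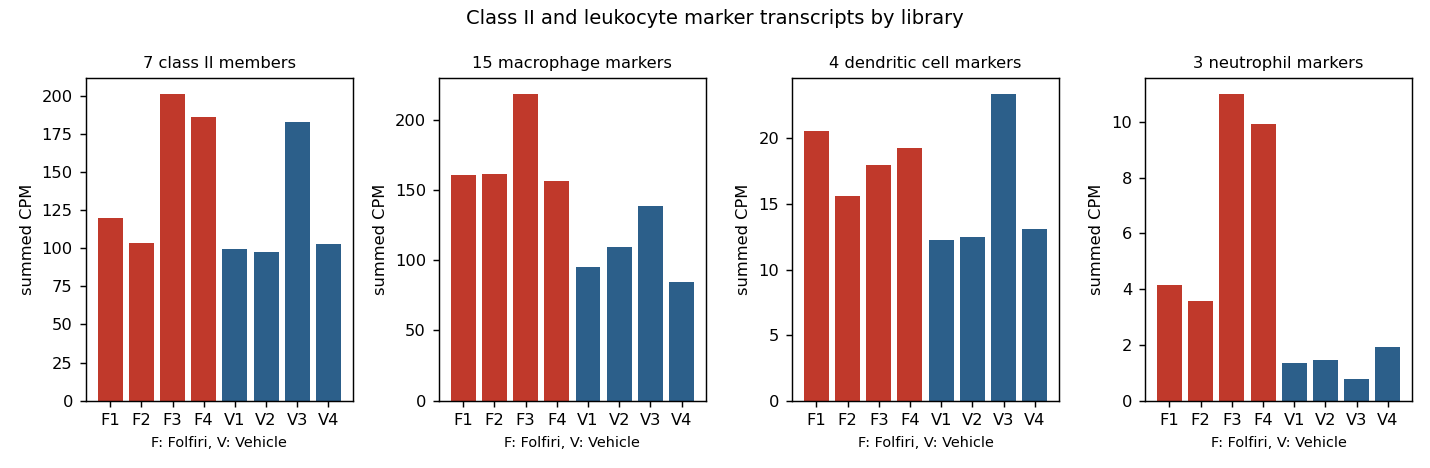
Summed CPM in the 4 Folfiri (left) and 4 Vehicle (right) libraries. Panels show the 7 members and the listed markers of macrophages (15), dendritic cells (4) and neutrophils (3). The summed macrophage markers separate the groups, from 156 CPM upward in Folfiri and up to 139 CPM in Vehicle. So do the summed neutrophil markers, from 3.56 CPM upward and up to 1.93 CPM. The members and the dendritic cell markers overlap.

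Markers of other tissues also differed among the libraries. Neutrophil markers, 3 of 8 listed, held a sum of at least 3.56 CPM in every Folfiri library and at most 1.93 CPM in every Vehicle library. Their median log2 fold change was 2.16, with 0 past the adjusted threshold in edgeR's quasi-likelihood test. Hepatocyte markers, 9 of 10 listed, held 229, 75.4, 14.4 and 8.10 CPM in Folfiri 1 to 4 and between 0.884 and 10.6 CPM in Vehicle. Adipocyte markers held 332, 386, 827 and 650 CPM in Folfiri 1 to 4, against 454, 2490, 1045 and 523 CPM in Vehicle 1 to 4, and all 9 endothelial markers had a negative log2 fold change with a median of -0.30. The hepatocyte markers were highest in Folfiri 1. The adipocyte markers were highest in Vehicle 2 and next in Vehicle 3, Folfiri 3 and Folfiri 4, the 3 libraries high in class II. The part of these markers in the class II values was not tested.

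The genes whose pattern over the 8 libraries was most like the mean of the members were sought as a description. The measure was the Pearson correlation with the mean centred log2 CPM of the 7 members. All points share library depth and scaling, and each gene was ranked among all 12883. Psenen, a subunit of gamma-secretase, had r = 0.960, followed by Snurf and Snrpn, overlapping transcripts of 1 locus that share nearly all reads, at 0.958 each. Babam1 had 0.953, Nlgn2 0.946, Il11ra1 0.945, Slc35c2 0.942, Tmem223 0.940, Hirip3 0.939 and Hal 0.938. Among the members themselves r ran from 0.772 for H2-Ea-ps to 0.991 for H2-Eb1, each of them being part of the mean. Psenen had 4.45, 3.95, 6.71 and 6.63 CPM in Folfiri 1 to 4, against 2.73, 2.58, 5.88 and 3.62 CPM in Vehicle 1 to 4, the order of libraries of the class II mean.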

How the data were processed

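RNA-Seq was analysed for 4 Folfiri and 4 Vehicle libraries, grouped by the treatment in the sample labels. Per the methods of the study, the authors captured poly(A) RNA, prepared SOLiD libraries, discarded reads of low quality or from rRNA and tRNA, used bfast to map single reads of 75 bases to the mm9 genome as well as to splice junctions, and counted them per RefSeq gene with bamutils. The deposited raw counts, with no scaling, were used for every value. The deposited signal columns are the authors' counts divided by a library size, and were not used. Gene lengths in bases are those of the deposited table and gave RPKM from CPM. The fold changes, p-values and FDR columns of the authors' own edgeR comparison were not used. Whether counting used strand, and how low genes were removed, is not given in the sources used here. Of the listed names, 21 were dates, made from gene symbols.

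In R 4.3.3, edgeR 4.0.16 was used with TMM scaling. Its quasi-likelihood test was applied to the 12883 genes whose reads summed to 40 or more over 8 libraries, with p-values adjusted over all of them after Benjamini and Hochberg and 0.05 as threshold. The common biological coefficient of variation was 0.261, residual degrees of freedom were 6, and totals ran from 8505985 to 21056818 reads. The fit was tested on simulated data. Alternatives were edgeR's exact and likelihood ratio tests, DESeq2 1.42.0, limma 3.58.1 voom with sample quality weights, RLE size factors, library totals, filterByExpr, no filter, the replicate number as a block, and each library left out. Log2 CPM for the likeness used a prior count of 2.

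The members and gene lists were chosen with earlier results of these data known. Named genes are every member, in each list the 3 tested genes with the smallest p and the 3 with the highest mean CPM (some list genes are given by counts only), and the 10 genes most like the members.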

Additional observations from a re-analysis of the deposited data

Results flagged for a closer look

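Over 40 groups of 4 libraries (the 7 members and 13 summed gene lists in both treatments), 11 had a library whose gap to the nearest other exceeded the 95% critical value of Dixon's test as a share of the range of its group, which by chance happens in about 1 of 20 groups. Vehicle 3 stood apart from the other Vehicle libraries for Cd74 at 92.5 CPM, for H2-Ab1 at 19.4 CPM, for H2-Eb1 at 20.01 CPM, for the sum of the members at 183 CPM and for the summed dendritic cell markers at 23.4 CPM. In the Folfiri group Folfiri 3 stood apart for the summed macrophage markers at 218 CPM and for the summed interferon gamma pathway genes at 735 CPM. Folfiri 1 did so for the summed list of other class II genes and transcription factors at 189 CPM, as the highest. The genes of that list named above are promoter-binding proteins. Folfiri 1 also stood apart for the endosomal proteases at 1454.5 CPM, as the lowest. Vehicle 2 was the highest of its group for class I presentation at 349 CPM and for the hepatocyte markers at 10.6 CPM. The members are correlated with each other and make up their own sum, so their values are not separate events.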

How the results depend on the processing

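Under the 17 alternatives all 119 log2 fold changes of the members stayed positive and 0 passed the adjusted threshold. The count of all genes called was 1 by edgeR's quasi-likelihood test, 86 by the exact test, 101 by the likelihood ratio test, 77 by DESeq2, 3 by limma voom and 3 with library totals only, and 0 to 1 with a library left out. With library totals only the median of all genes was 0.14 on the log2 scale and that of the members 0.59. Ciita had a log2 fold change of 1.04 by limma voom. Outside the members, Lyz2 passed the adjusted threshold in edgeR's exact and likelihood ratio tests and in DESeq2. C1qc passed in the likelihood ratio test. For Cd74 the fits with a library left out ran from 0.08 to 0.50, for H2-Aa from 0.11 to 0.61, for H2-Ab1 from 0.36 to 0.82, for H2-Ea-ps from 0.11 to 0.47 and for H2-DMa from 0.30 to 0.69. Cd274 changed sign, at -0.16 with the replicate block, -0.69 without Folfiri 3, -0.073 without Vehicle 1 and -0.053 without Vehicle 3 (range with a library left out -0.69 to 0.48), as did B2m at -0.019 without Folfiri 3 (range -0.019 to 0.71), and the cause was not tested. At unadjusted p under 0.05 the count of members was 1, against 4 with the replicate block, 3 with library totals only and 0 by limma voom. Over all genes that count was higher under each of these alternatives than in the fit used for the results above. With the block and with library totals the count of members rose by a larger factor than that of all genes. By limma voom the count of members fell while that of all genes rose. The members are few and correlated, and whether their counts depart from those of all genes was not tested. With the replicate number as a block 3 genes were called and Ciita had a log2 fold change of 1.39 with an adjusted p of 0.254 in edgeR's quasi-likelihood test. Deviations of same-numbered libraries correlated at 0.300, 0.136, 0.0557 and 0.196, and 4 of 8 libraries correlated best with their own number. These correlations are hints from the data. In 6 of 7 members each Folfiri library lay above the Vehicle library of its number, but the share of all genes was not counted. The members are correlated and all had a higher mean in Folfiri, so that count cannot show pairing. The labels give the numbers no meaning and 1 pair hardly correlated, so the numbers were not taken as pairs. Depth limits Ciita, with 104 reads in Folfiri and 29 in Vehicle.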

Other observations

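Genes that act beside class II were also read from the same fit. Of 10 genes of costimulation and CD4 recognition 5 were listed and 0 passed the adjusted threshold. Lag3, an inhibitory receptor of T cells that binds class II, had 0.718, 0.781, 1.06 and 1.14 CPM in Folfiri 1 to 4, against 0.273, 0.0807, 0.262 and 0.723 CPM in Vehicle 1 to 4, a log2 difference of 1.42 ± 0.55 (SE) with an adjusted p of 0.468 by edgeR's quasi-likelihood test. The log2 difference of Lag3 was 2.14 when Vehicle 4 was left out. Its Vehicle mean of 0.335 CPM was below the 0.603 CPM of Ciita, so both differences rest on few reads. Cd28 had 8.33 CPM in Folfiri 1, against 2.60 to 4.08 CPM in the other Folfiri libraries and 1.69 to 3.53 CPM in Vehicle, and its log2 difference was 0.65, and 0.19 without Folfiri 1. Cd86 differed by 0.69, and by 0.46 without Folfiri 1, Cd274 by 0.09 and Icosl by -0.13.

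Class I presentation had all 9 of its genes listed, 0 past the adjusted threshold, 8 with a positive log2 fold change and a median of 0.33. Nlrc5, the class I counterpart of Ciita, averaged 5.13 ± 2.00 CPM in Folfiri and 3.13 ± 1.62 CPM in Vehicle (SD, n = 4 each), a log2 difference of 0.70 ± 0.41 (SE) with an adjusted p of 0.597 in edgeR's quasi-likelihood test. Without Vehicle 1 the difference of Nlrc5 was 0.44. The immunoproteasome subunits Psmb9 and Psmb8 differed by 0.66 and 0.70, but by 0.28 and 0.12 without Folfiri 3. B2m differed by 0.33, and the class I heavy chains H2-D1 and H2-K1 by 0.02 and 0.12. Psmb8 was highest in Folfiri 3 and next in Folfiri 4 at 13.6 CPM, against 5.12 to 9.94 CPM in Vehicle libraries. Folfiri 1 and Folfiri 2, at 5.24 and 7.38 CPM, lay within that range, so the groups overlapped.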
